A study of Drosophila melanogaster with 12 samples.

Results

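The glutathione S-transferases (Gst) and the UDP-glycosyltransferases (Ugt) are the conjugating enzymes of the fly. A gene was taken as a member where the platform annotation gave its probe set a single symbol of the Gst classes D, E, O, S, T or Z, or of a numbered Ugt group. This gave 67 genes, 34 Gst and 33 Ugt, of 10844 genes with 1 symbol on the array. Where a gene had several probe sets, the one brightest on average was used. Measured values entered the rule in no other way, though it was set with earlier results of these data known. The Gst genes comprised 11 of class D, 14 of class E, 3 of class O, 1 of class S, 3 of class T and 2 of class Z. The Ugt genes comprised 8 of group Ugt37, 5 of Ugt35, 4 each of Ugt36 and Ugt303, 3 each of Ugt302 and Ugt49, and 1 each of Ugt301, Ugt304, Ugt305, Ugt307, Ugt316 and Ugt317.

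Glutathione S-transferases join the tripeptide glutathione to electrophilic compounds such as insecticides, plant toxins and products of lipid peroxidation, and conjugates are then pumped out of the cell. UDP-glycosyltransferases are mostly anchored in the endoplasmic reticulum and attach a sugar, in insects mainly glucose from UDP-glucose, to small lipophilic molecules. In the fly head both families are known from the fat body and from the antenna, where some of their enzymes are thought to clear odorants.

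The flies were y w; tim01 adults, and RNA was taken from their heads. The tim01 mutation removes the function of the clock gene timeless, and all 12 samples carry it, the light-dark as well as the dark ones, so no sample has a working copy of that gene for comparison. After 3 days in cycles of 12 h light and 12 h darkness, flies were frozen every 4 h through another light-dark day (LD, hours from lights-on as ZT) and the following day of constant darkness (DD, hours as CT). The LD light phase is ZT2, ZT6 and ZT10, the LD dark phase ZT14, ZT18 and ZT22, and CT2, CT6 and CT10 make up the DD subjective day, CT14, CT18 and CT22 the DD subjective night. Each time point is 1 array of pooled heads, and the labels do not give the sex or age of the flies. Every group mean therefore rests on 3 arrays of different hours, and its error is the spread between those hours, which holds technical differences as well. Values are log2 RMA signals, in which a step of 1 is a doubling of the signal.

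Markers of the eye were bright and those of the antenna mostly dim. The photoreceptor genes Arr2, Arr1 and trp had mean signals of 11.94, 11.17 and 9.41. Of 6 antennal genes, Obp19d was bright at 10.09 and Obp28a had 5.37, while Obp83b, Orco, a10 and lush were dim, at 3.72, 3.67, 3.53 and 2.54. Of 9 fat body genes, the yolk protein genes Yp1, Yp2 and Yp3, which mark the female fat body, lay between 13.34 and 13.61. Lsp2, apolpp and fit had 10.38, 10.25 and 9.09, while Obp99b, Fbp1 and Fbp2 had 5.55, 5.54 and 2.44. Male reproductive tract transcripts were raised on ZT2, ZT18 and CT2, and gut transcripts on ZT2 and CT2 and in part on ZT18. The mean of 25 male reproductive tract genes, relative to each gene's own mean over the arrays, was 0.85, 0.39 and 0.49 there and −0.26 to −0.10 elsewhere. That of 29 gut enzyme genes was 0.74, 0.02 and 0.40, against −0.20 to 0.03 elsewhere. Some of these gut genes were raised on ZT18 too. betaTry read 8.66, 7.07 and 7.92 on ZT2, ZT18 and CT2, against 6.12 to 6.31 elsewhere. Others, such as Jon44E with 3.52 on ZT18, were not raised there. Each group except the DD subjective night thus holds 1 array of ZT2, ZT18 and CT2. In whole heads, fewer cells of a type and less RNA per cell cannot be told apart.

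Signals of the Gst genes spanned most of the range of the array, and those of the Ugt genes were mostly dim. A mean of at least 4, close to the array medians of 4.1 to 4.14, was reached by 22 of 34 Gst genes (64.7%), by 10 of 33 Ugt genes (30.3%) and by 6008 of the 10844 genes (55.4%). The median of the gene means was 5.0 for Gst (2.60 to 9.96), 2.84 for Ugt (1.90 to 7.17) and 4.25 for all genes. These are signals of probe sets, which depend on the probes as well as on the transcript, so they put no order of abundance on the genes. There are no detection calls, so a dim gene cannot be called unexpressed.

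Among the Gst genes, the brightest probe sets were those of GstD1 (mean 9.96 ± 0.14, SD over 12 arrays), GstE12 (9.01 ± 0.087) and GstE9 (8.23 ± 0.12). GstD1 is the best-known Gst of the fly and degrades DDT. GstO2, GstO3 and GstE3 followed with 7.43, 7.35 and 7.0, and the dimmest were GstD6, GstE5 and GstE10 with 2.90, 2.80 and 2.60. Among the Ugt genes, Ugt35B1 (7.17 ± 0.15), known from the antenna, and Ugt36E1 (6.14 ± 0.10), known from olfactory neurons, had the brightest probe sets. Ugt36D1, Ugt37D1, Ugt302C1 and Ugt301D1 lay between 6.06 and 5.39, and Ugt49B2, Ugt37A2 and Ugt303B1 were dimmest with 2.0, 1.96 and 1.90.

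**Figure D1:**
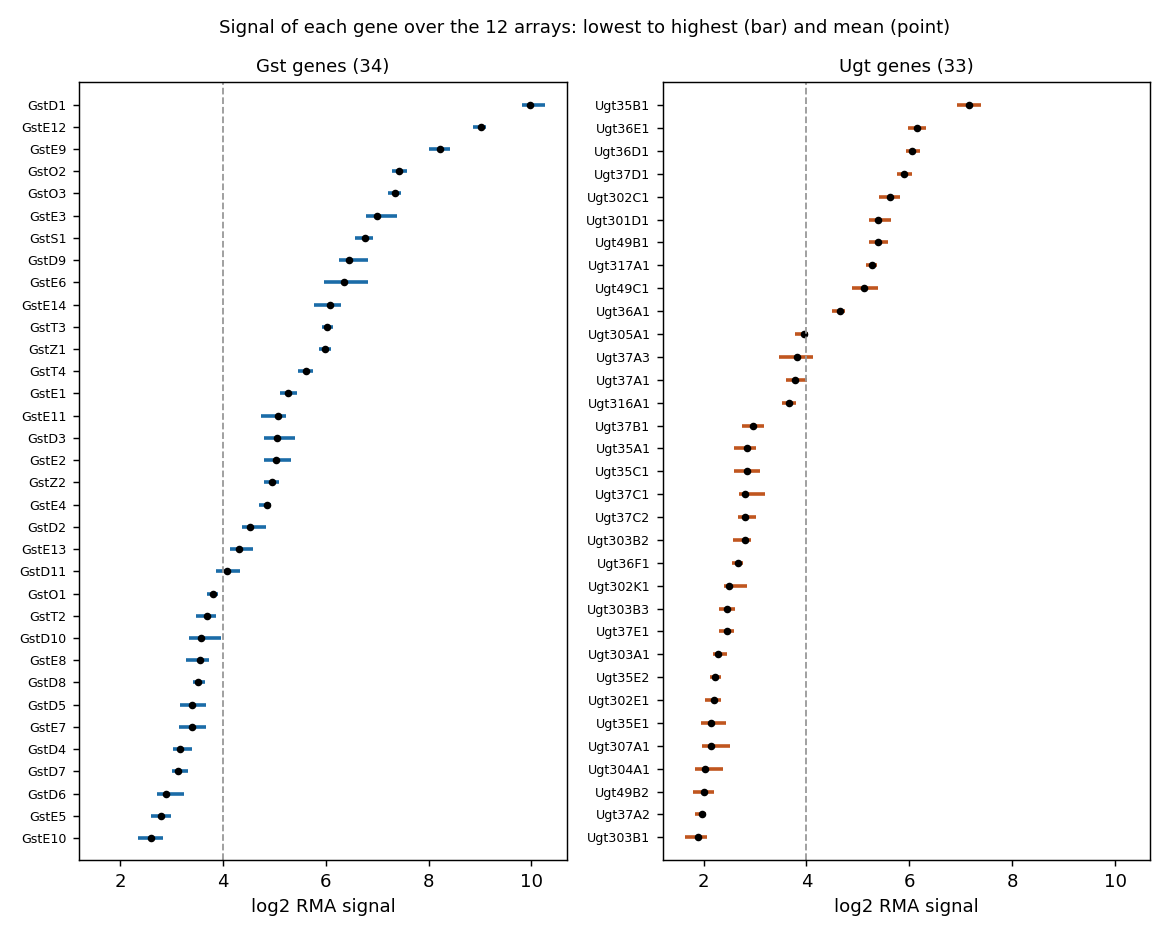
Log2 RMA signal of each of the 34 Gst genes (left) and 33 Ugt genes (right): the point is the mean over 12 arrays, the bar runs from the lowest to the highest array, and the dashed line marks a signal of 4. Of the Gst genes 22 lie at or above the line and of the Ugt genes 10; no bar is as long as 1.

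Over the 12 arrays the members varied little. The highest and lowest arrays of a gene differed by a median of 0.43 for Gst (0.20 to 0.84), 0.37 for Ugt (0.20 to 0.66) and 0.36 for all genes. A range of at least 0.5 was seen in 10 Gst genes (29.4%), 6 Ugt genes (18.2%) and 16.5% of all genes. A range of at least 1, a doubling of the signal, was seen in 0 of the 67 members and in 119 of all genes (1.1%).

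The courses of the class D genes, which act on insecticides and peroxides and lie side by side in the genome, differed among themselves. GstD1 read 10.09, 10.13 and 10.26 at ZT2, ZT6 and ZT10 and 9.93, 9.84 and 9.95 at ZT14, ZT18 and ZT22. In DD it read 9.81, 10.02 and 9.94 in the subjective day and 9.86, 9.84 and 9.91 in the subjective night. The 3 arrays taken in light stood above all LD dark arrays, while day and night of DD overlapped. Groups of 3 arrays can separate in this way by chance. The share of all genes that did so was not counted, here or for the genes below. GstD3 read 4.92, 5.37, 5.34, 5.4, 4.95 and 4.89 in LD and 4.81, 4.93, 5.0, 5.0, 5.08 and 4.95 in DD. Its 3 high values ran from ZT6 to ZT14, across lights-off, and stood above its other 9 arrays. GstD9 read 6.31, 6.58, 6.82, 6.64, 6.48 and 6.41 in LD and 6.48, 6.42, 6.43, 6.27, 6.36 and 6.29 in DD. GstD10 read 3.5, 3.66, 3.97, 3.70, 3.74 and 3.51 in LD and 3.42, 3.54, 3.46, 3.34, 3.6 and 3.45 in DD. Both had their highest array at ZT10 and their lowest at CT14.

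Other class D genes followed other courses. GstD2 read 4.46, 4.56, 4.47, 4.46, 4.41 and 4.58 in LD, and 4.64, 4.58 and 4.84 against 4.45, 4.37 and 4.45 in the day and night of DD, which did not overlap. GstD11 read 3.95, 3.91, 4.33, 4.28, 4.0 and 3.87 from CT2 to CT22, high at CT10 and CT14 only, and 4.01 to 4.28 in LD. GstD4 stayed between 3.04 and 3.40 with its highest array at CT18, and GstD6 between 2.72 and 3.25 with its highest at CT2. The remaining GstD5, GstD7 and GstD8 were dim, with means of 3.40, 3.12 and 3.52 and ranges of 0.51, 0.33 and 0.23.

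In class E, GstE6 had the widest range of all members, 0.84 or 1.80-fold. It read 6.31, 6.82, 6.62, 6.72, 6.42 and 6.28 through the LD hours and 5.97, 6.39, 6.08, 6.18, 6.25 and 6.25 through the DD hours. The LD array lay above the DD array of the same hour at 6 of 6 hours, by 0.029 to 0.54. GstE2 read 5.01, 5.34, 5.25, 5.06, 4.95 and 5.0 in LD and 4.79, 5.17, 4.93, 4.86, 5.11 and 5.01 in DD, highest at hour 6 of both days. GstE3 was highest at ZT14 with 7.38 and lowest at CT18 with 6.78. GstE13 was also highest at ZT14, with 4.59, and lowest at CT22 with 4.14. The bright GstE9 and GstE12 stayed within 8.01 to 8.42 and 8.87 to 9.13. GstE14, also called noppera-bo and needed for ecdysteroid synthesis in the prothoracic gland, stayed between 5.77 at ZT2 and 6.29 at CT14. Ranges of the other 7 class E genes lay between 0.25 and 0.53.

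The smaller classes moved less. GstO2 and GstO3 of the omega class, whose members also carry out thiol exchange and dehydroascorbate reduction, had ranges of 0.28 and 0.27, and GstO1 had 0.20, the smallest of the family. GstS1, the single sigma class gene, known to conjugate the lipid peroxidation product 4-hydroxynonenal, ranged from 6.56 to 6.93. The theta class genes GstT2, GstT3 and GstT4 had ranges of 0.38, 0.21 and 0.30. GstZ1 and GstZ2 of the zeta class, the class of maleylacetoacetate isomerase in tyrosine breakdown, had ranges of 0.24 and 0.28. GstZ2 was lower in LD than in DD at all 6 hours, by at most 0.19.

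**Figure D2:**
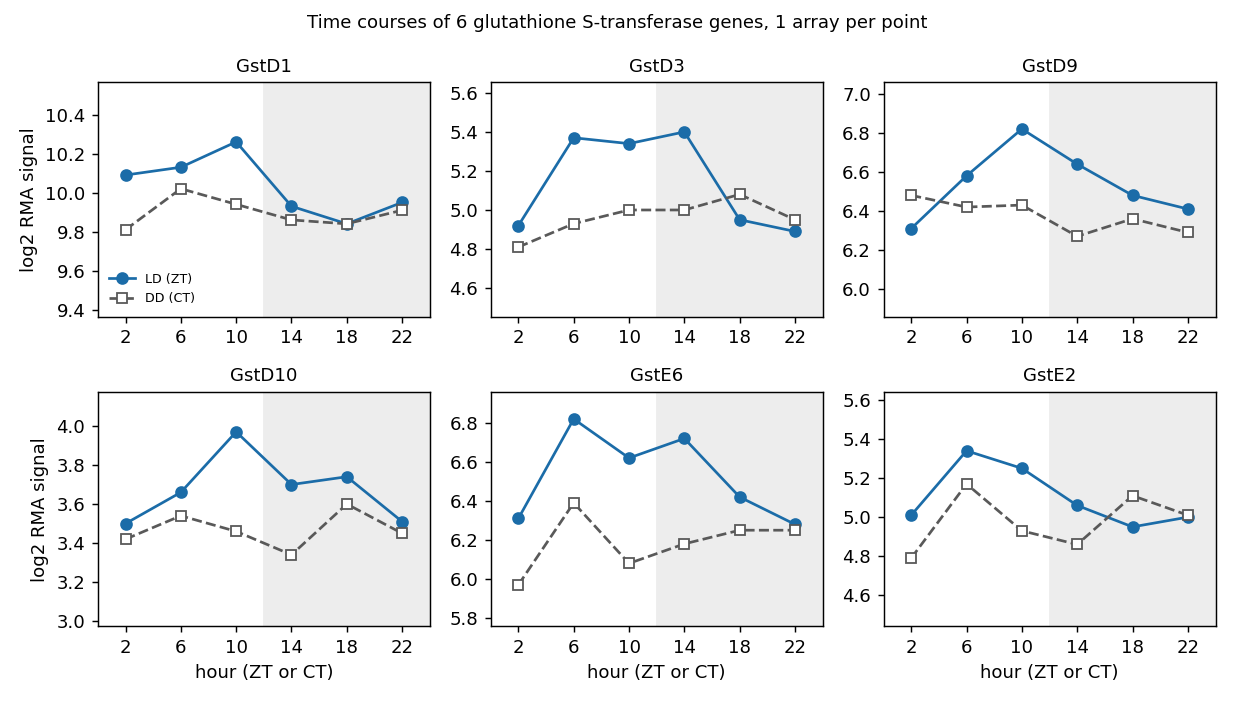
Log2 RMA signal of 6 Gst genes against the hour of the day, 1 array per point, with filled blue circles for LD (ZT), open squares for DD (CT) and grey marking the hours of darkness or subjective night. Each panel spans its own signal range; GstD3 and GstE6 are high from ZT6 to ZT14, and GstD9 and GstD10 highest at ZT10.

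The Ugt genes with the widest ranges were mostly dim. Ugt37A3 (range 0.66) read 3.72, 3.80, 3.96, 4.13, 3.56 and 3.91 in LD and 3.47, 3.63, 3.73, 4.07, 3.93 and 3.92 in DD, where all 3 subjective night arrays stood above all subjective day arrays. Ugt304A1 read 1.91, 1.87, 1.83, 2.08, 1.92 and 2.0 in LD and 2.38, 2.11, 2.22, 1.82, 2.04 and 2.19 in DD. Its 3 arrays in light lay below its 3 subjective day arrays, but its signal was among the lowest of all members. Ugt307A1 read 1.97, 2.03, 2.06, 2.20, 2.51 and 2.22 in LD and 2.02 to 2.30 in DD, with its highest array at hour 18 of both days. These hours are ZT18, where the male reproductive tract genes were raised, and CT18, where they were not. Ugt37C1 was highest at CT18 (3.2) and Ugt35C1 at CT10 (3.09), with ranges of 0.51 and 0.50.

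Of the brighter Ugt genes, Ugt49C1 had the widest range, from 4.88 at CT22 to 5.4 at ZT14. Ugt35B1 read 7.39, 7.37, 7.08, 6.94, 7.07 and 7.11 in LD and 7.09, 7.26, 6.93, 7.30, 7.24 and 7.2 in DD, with a higher mean in the light phase of LD and in the subjective night of DD. Ugt36E1 read 6.33, 6.20 and 6.26 in light and 5.98, 6.07 and 6.07 in the LD dark phase, without overlap, and 6.04 to 6.25 in DD. Ugt301D1 read 5.42, 5.34, 5.41, 5.29, 5.22 and 5.34 in LD and 5.4, 5.31, 5.28, 5.45, 5.56 and 5.64 in DD. Its 3 subjective night arrays were its 3 highest. Ugt302C1, Ugt36D1 and Ugt37D1 stayed within ranges of 0.41, 0.27 and 0.28, and Ugt317A1 had the smallest range of the family, 0.20. The other Ugt genes not named here by value had ranges between 0.205 and 0.48.

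**Figure D3:**
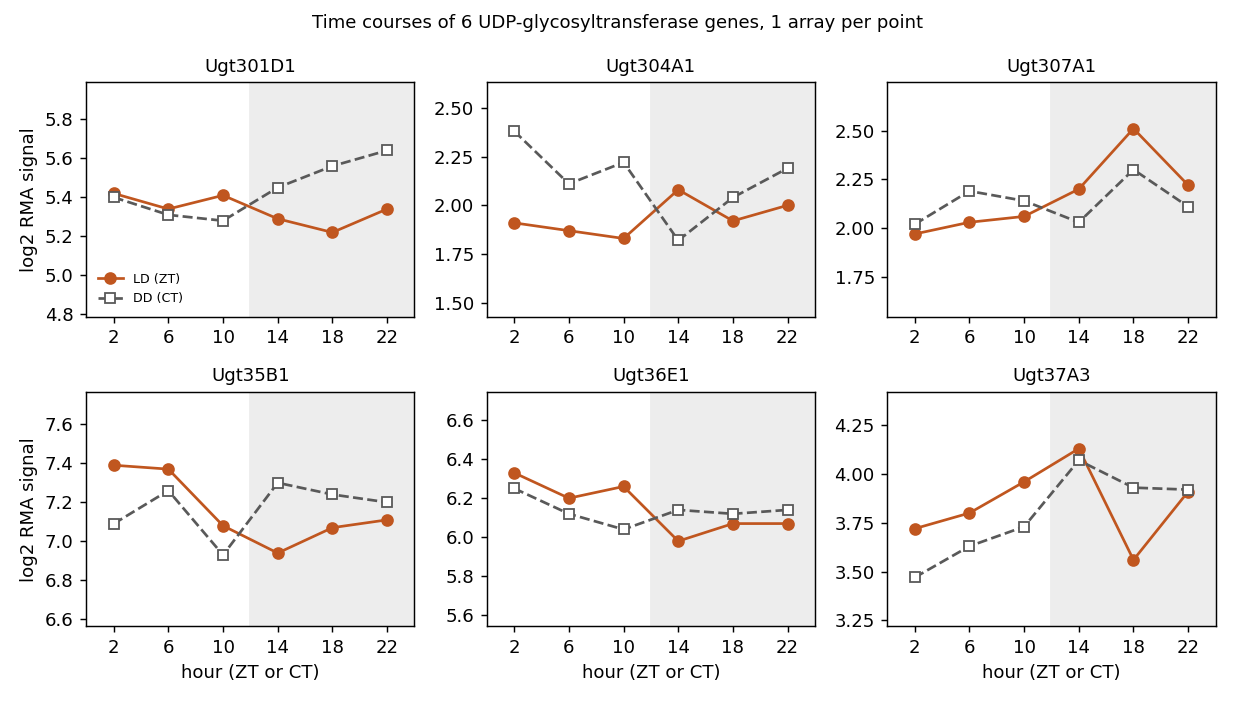
Log2 RMA signal of 6 Ugt genes against the hour of the day, 1 array per point, with filled orange circles for LD (ZT), open squares for DD (CT) and grey marking the hours of darkness or subjective night; each panel spans its own signal range. Ugt301D1 is highest in the DD subjective night, and Ugt304A1 is low at ZT2, ZT6 and ZT10, at signals near 2.

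Averaged over its genes, each family was nearly flat. The mean of the 34 Gst genes, relative to each gene's own mean, was −0.04, 0.05, 0.07, 0.06, −0.04 and −0.02 through the LD hours and between −0.03 and 0.02 in DD. That of the 33 Ugt genes stayed between −0.04 and 0.05, and that of all genes between −0.01 and 0.01. The class D mean was highest at ZT10 (0.13), and the class E mean was 0.08, 0.05 and 0.09 at ZT6, ZT10 and ZT14. In DD the class D mean was 0.09 at CT10 and −0.08 to −0.01 on the other arrays. The class E mean was 0.08 at CT6 and −0.05 to −0.02 on the other DD arrays. At ZT6 to ZT14, a window chosen after the values were seen, 15 Gst genes (44.1%) had their highest array, against 7 Ugt genes (21.2%) and 23.1% of all genes. At CT6 to CT14 it was 8 Gst genes (23.5%), 8 Ugt genes (24.2%) and 28.2% of all genes. Of the Gst genes with a mean of at least 4, 12 of 22 (54.5%) peaked in the LD window, against 26.9% of all genes that bright. The arrays on both sides of the window include ZT2, which carried gut and male tract transcripts, and ZT18, which carried male tract and some gut transcripts. The mean of the 9 fat body markers ran from −0.19 at ZT10 to 0.20 at ZT14, within the window. Of these, Obp99b (5.61 to 5.58) and Fbp2 (2.5 to 2.38) did not rise between those arrays. The part of the gut, male tract or fat body transcripts in these counts was not tested.

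The LD light phase was set against the LD dark phase with limma. Light and hour of the day change together in this comparison and cannot be told apart. No member passed an adjusted p of 0.05 over the 13966 probe sets tested, of which 0.129% passed. At an unadjusted p under 0.05 were 4 members, 1 Gst and 3 Ugt, or 5.97%, against 6.26% of all probe sets. The median difference was 0.039 for Gst and −0.013 for Ugt, with −0.004 for all genes, and 21 of 34 Gst and 15 of 33 Ugt genes were higher in light. GstD1 was nearest to passing, 0.25 ± 0.079 (SE, 1.19-fold) higher in light with an adjusted p of 0.459. Ugt36E1 was 0.22 ± 0.070 higher (adjusted p = 0.465). Ugt307A1 was lower, by −0.29 ± 0.091 (adjusted p = 0.465). Ugt35B1 was 0.24 ± 0.095 higher (adjusted p = 0.703), but its other probe set gave −0.14 ± 0.076. GstE8 came next with 0.20. A dimmer probe set of GstO2 gave −0.255 ± 0.097 against 0.057 ± 0.080 for its brightest. The 95% interval around a member's difference between 2 groups of 3 reached a median of 0.18, or 1.14-fold, to either side. This is before any adjustment for the number of probe sets. Smaller differences could not be resolved, and larger ones, such as that of GstD1, did not pass the adjusted threshold either.

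In constant darkness, where no light falls in the subjective day, day was set against night in the same way. No member passed, against 0.0644% of all probe sets. An unadjusted p under 0.05 was reached by 8 members, 5 Gst and 3 Ugt, or 11.9%, against 5.84% of all probe sets. GstD2 was 0.26 ± 0.079 higher in the subjective day (adjusted p = 0.655), and Ugt304A1 was 0.22 ± 0.091 higher (adjusted p = 0.817). Lower in the subjective day were Ugt37A3 (−0.36 ± 0.12, adjusted p = 0.737), Ugt301D1 (−0.22 ± 0.072, adjusted p = 0.737) and GstD4 (−0.20 ± 0.083, adjusted p = 0.818). The medians were 0.026 for Gst, 0.003 for Ugt and 0.005 for all genes.

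The difference between the 2 day-night contrasts asks which genes respond to the hour differently with and without light. No member and 0.0% of the probe sets passed. At an unadjusted p under 0.05 were 7 members, 2 Gst and 5 Ugt, against 5.21% of probe sets. The smallest p was that of Ugt301D1, whose contrast was 0.33 ± 0.10 higher in LD (adjusted p = 0.924), followed by Ugt35B1 with 0.395 ± 0.13 (adjusted p = 0.935). Ugt304A1 (−0.35 ± 0.13), GstD6 (−0.34 ± 0.13) and Ugt35E1 (−0.30 ± 0.12) had the contrast lower in LD, each with an adjusted p of 0.935. The second probe set of Ugt35B1 gave −0.16 ± 0.11. A dimmer probe set of GstO2 gave −0.29 ± 0.14, against 0.003 ± 0.11 for its brightest. No difference between the days is thus shown for any member.

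**Figure D4:**
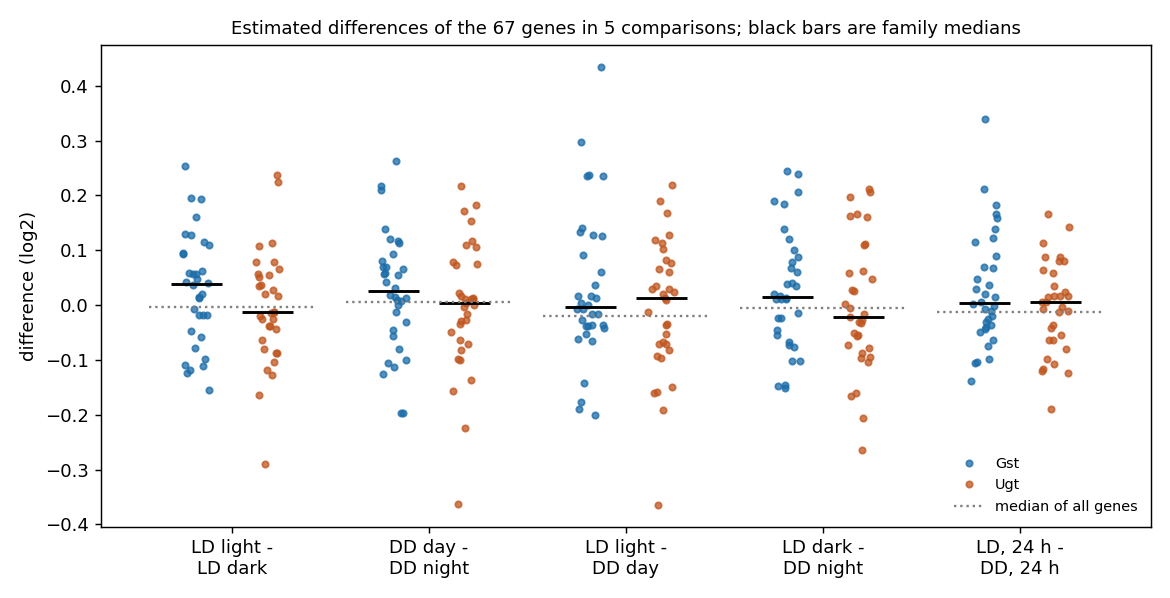
Estimated log2 difference of each gene in 5 comparisons, blue for the 34 Gst and orange for the 33 Ugt genes, with black bars for family medians and dotted lines for the median of all genes. Points scatter on both sides of 0 in both families; the highest is GstE6 in LD light against DD day (0.43) and the lowest Ugt304A1 there and Ugt37A3 in DD (both −0.36).

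The hours with light were then set against the same hours of the dark day. No member passed, against 0.186% of all probe sets. At an unadjusted p under 0.05 were 12 members (17.9%), 7 Gst and 5 Ugt, against 11.5% of probe sets. Ugt304A1 was lower in light by −0.36 ± 0.091 (95% interval −0.56 to −0.17, adjusted p = 0.114). GstE6 was higher by 0.43 ± 0.13 (95% interval 0.16 to 0.71, 1.35-fold, adjusted p = 0.194), although its array at ZT2 (6.31) lay below that at CT6 (6.39). GstD1 was higher by 0.24 ± 0.079 (adjusted p = 0.257), Ugt36F1 by 0.17 ± 0.066 (adjusted p = 0.327), and GstD2 was lower by −0.19 ± 0.079 (adjusted p = 0.365). GstD3, GstE2 and GstD10 were higher by 0.30, 0.235 and 0.235. GstD6, Ugt35E1, Ugt302E1 and Ugt36D1 were lower, by −0.20, −0.19, −0.16 and −0.16. The probe sets of Ugt35B1 disagreed, with 0.19 ± 0.095 for the brightest and −0.19 ± 0.076 for the other. The medians were −0.003 for Gst and 0.013 for Ugt, with −0.019 for all genes. Leaving out the CT6 array brought Ugt304A1 past the threshold (−0.43, adjusted p = 0.0464). GstE6 passed with the gut and male tract level as a covariate (0.46, adjusted p = 0.0409) and with clock hour as a block (0.43, adjusted p = 0.0333).

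The dark hours of LD were also set against the same hours of DD, darkness in both cases. No member and 0.0% of probe sets passed in this comparison. At an unadjusted p under 0.05 were 5 members, 1 Gst and 4 Ugt, against 4.87% of probe sets. Ugt301D1 was lower in LD by −0.26 ± 0.072 and Ugt303B1, at signals of 1.64 to 2.07, higher by 0.21 ± 0.081. GstE13 was higher by 0.24 ± 0.094, Ugt303B3 lower by −0.16 ± 0.069 and Ugt35B1 lower by −0.205 ± 0.095. Each had an adjusted p of 0.998.

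Over the whole 24 h, LD against DD, no member passed, against 0.0215% of probe sets. At an unadjusted p under 0.05 were 8 members, 4 Gst and 4 Ugt, or 11.9%, against 11.1% of probe sets. GstE6 averaged 6.53 ± 0.22 over the 6 LD arrays and 6.19 ± 0.15 over the 6 DD arrays (SD), which differ by 0.34 ± 0.092 (SE, adjusted p = 0.172 by limma). Without the ZT2 array it passed (0.41, adjusted p = 0.0464), as it did with the gut and male tract covariate (0.38, adjusted p = 0.0349) and with clock hour as a block (0.34, adjusted p = 0.0238). Without ZT2, ZT18 and CT2 together it did not pass. Ugt304A1 was lower by −0.19 ± 0.064 (adjusted p = 0.271), Ugt303B1 higher by 0.17 ± 0.058 (adjusted p = 0.290). GstD10 was higher by 0.21 ± 0.075 (adjusted p = 0.302) and above at 6 of 6 hours, and GstD1 by 0.14 ± 0.056 (adjusted p = 0.361) and above at 5 of 6. Of the other members, GstE6 and Ugt317A1 were also above at 6 of 6 hours, and GstZ2 and Ugt302E1 at 0 of 6. The share of all genes with such hours was not counted. The LD arrays precede the DD arrays by a day, so regime and order of sampling cannot be told apart. These comparisons with DD share their arrays with one another and with the contrasts within a day.

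A 24 h cosine fitted to each day gave no member past the threshold in LD, where 0.107% of probe sets passed, or in DD, where 0.00716% passed. In LD an unadjusted p under 0.05 was reached by 8 members, 6 Gst and 2 Ugt, against 5.73% of probe sets. GstD3 had the largest amplitude (mean to peak) of the members, 0.30, and a fitted peak at 10.2 h after lights-on (adjusted p = 0.123 by limma). GstD9, with the next smallest p, had 0.22 at 11.2 h (adjusted p = 0.411). GstE6 and GstD10 had 0.25 at 10 h and 0.19 at 11.7 h, and GstD1 and GstE8 had 0.18 at 6.9 h and 0.18 at 7.6 h. These 6 Gst genes had fitted peaks between 6.9 and 11.7 h, a span set by their own values after they were picked by p. The share of all probe sets with a peak in that span was not counted. GstD1, GstD3, GstD9 and GstD10 are neighbours in the genome, and all 6 Gst genes rest on the same LD arrays. The 2 Ugt genes were Ugt307A1 with 0.23 at 17.7 h and Ugt35B1 with 0.22 at 3.4 h. The other probe set of Ugt35B1 had 0.13 at 20.6 h. The median amplitude was 0.11 for Gst, 0.065 for Ugt and 0.073 for all genes.

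In DD 7 members, 3 Gst and 4 Ugt, had an unadjusted p under 0.05, against 3.72% of probe sets. GstD11 (amplitude 0.23, peak at 12.2 h), Ugt301D1 (0.18, 20.1 h), Ugt35E1 (0.18, 9.6 h), GstD4 (0.17, 16.4 h) and Ugt37A3 (0.26, 16.2 h) were the nearest, each with an adjusted p of 1.00 by limma. The median amplitude was 0.061 for Gst, 0.080 for Ugt and 0.072 for all genes. Whether amplitudes differed between the days was not tested.

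Many members lie next to each other. In the gene order of the RefSeq annotation of Release 6, 49 of the 67 stood in 10 rows with at most 3 other protein-coding genes between neighbours, and rows of 11 GstD, 10 GstE and 10 Ugt genes were the longest. Near-identical neighbours may share probe signal. In the row from GstD10 to GstD11, 3 of 11 genes had an unadjusted p under 0.05 in LD against DD, where 11.1% of all probe sets had one: GstD10, GstD9 and GstD1, which come first and side by side (0.21, 0.17 and 0.14 higher in LD). The median of that row was 0.030 and 6 of 11 genes were higher. In the row from GstE10 to GstE9, 7 of 10 were higher, and 1 of 10, GstE6, had such a p. In the row from Ugt35C1 to Ugt303A1, 1 of 10 was higher (Ugt302C1, 0.14), and the median was −0.048. With such a p there were 2 of 10, Ugt304A1 (−0.19) and Ugt302E1 (−0.12). Over all genes 44.0% were higher and the median was −0.012. The shares in the GstE and Ugt rows lie near that of all probe sets.

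**Figure D5:**
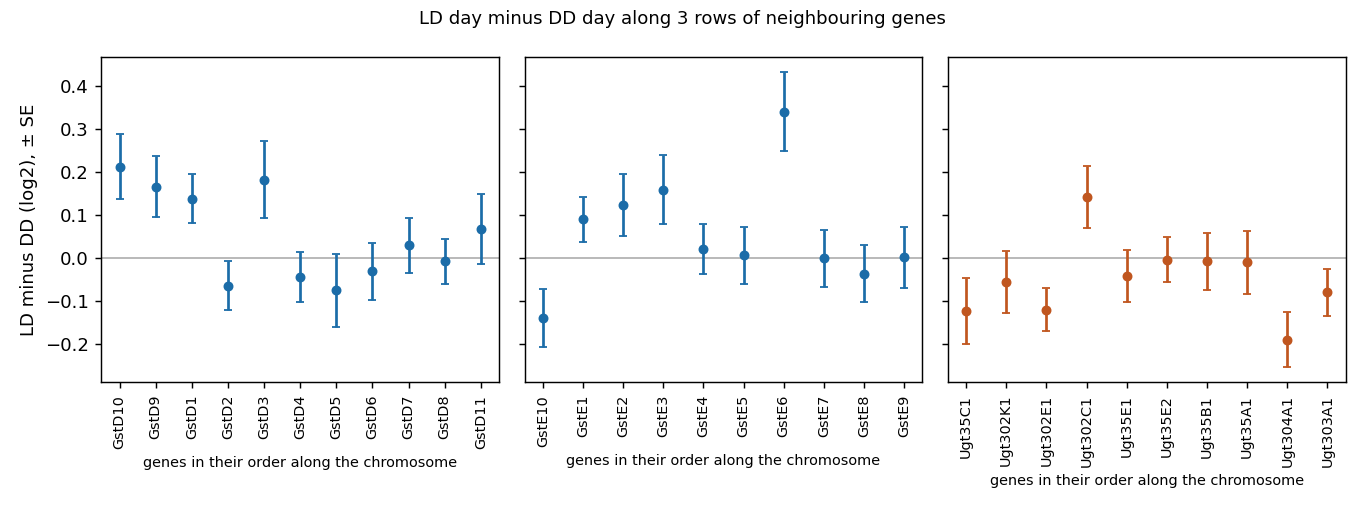
LD minus DD on the log2 scale (point) with its SE (bar) for the genes of 3 rows in their order along the chromosome: GstD10 to GstD11, GstE10 to GstE9 and Ugt35C1 to Ugt303A1. The first 3 genes of the left row lie above 0, GstE6 is highest in the middle row, and 9 of the 10 genes of the right row lie below 0.

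Genes that supply or serve the conjugating enzymes were read from the same fits, and none of the lists had a gene past the adjusted threshold in any of the 8 comparisons. Of 9 genes of glutathione supply and reduction, 2 had an unadjusted p under 0.05 in the light hours against the same dark hours, where 11.5% of all probe sets had one: Ggt-1 (0.22), a gamma-glutamyl transferase, and Trxr1 (0.185), the thioredoxin reductase through which flies keep glutathione reduced, both higher in light. Cat was higher in LD than in DD by 0.17 ± 0.063 (adjusted p = 0.329), and CG4829 had a rhythm amplitude of 0.19 in DD with a fitted peak at 22.6 h. Gclc, the catalytic subunit of the first step of glutathione synthesis, stayed between 4.55 and 4.86. Another 3 glutathione transferases carry symbols outside the rule for members. Of these, se, which makes a precursor of the red eye pigments, was lower in LD by −0.30 ± 0.076 (adjusted p = 0.135). Its arrays read 5.95 to 6.34 in LD and 6.14 to 6.68 in DD. gfzf was lower in the subjective day by −0.28 ± 0.090 (adjusted p = 0.737).

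Of 6 genes of UDP-sugar supply, Hex-A, a hexokinase, was 0.34 ± 0.11 higher in light than in the LD dark phase (adjusted p = 0.508). Galt, the uridylyltransferase of galactose breakdown, was lower in LD by −0.13 ± 0.049 (adjusted p = 0.319). sgl, the UDP-glucose dehydrogenase, ranged from 4.66 to 5.11. Of 13 regulators, 4 had an unadjusted p under 0.05 in the light hours against the dark day (all probe sets 11.5%). EcR, the ecdysone receptor, was lower by −0.215, crc and Keap1 higher by 0.19 and 0.16, and foxo lower by −0.20. The stress regulator cnc stayed between 4.07 and 4.61, and Keap1, its inhibitor, between 2.29 and 2.54.

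Of 10 exporters, MRP, a transporter of glutathione and other conjugates, was the gene of all these lists nearest to passing. It read 6.36, 6.64, 7.13, 6.32, 6.36 and 6.30 in LD and 6.09, 6.20, 5.88, 6.46, 6.28 and 6.07 in DD, with its highest array at ZT10 and its lowest at CT10. In light it stood 0.65 ± 0.145 above the same hours of the dark day (adjusted p = 0.0764). It passed there in 5 of 18 alternatives (adjusted p 0.006 to 0.395 by limma). Among these were the fits without ZT2 (0.83, adjusted p = 0.00574) and without CT6 (0.73, adjusted p = 0.0422). In LD against DD MRP passed in 1 of 18 alternatives, the fit without ZT2 (0.44, adjusted p = 0.0418). In the comparison of the light hours 4 of 10 exporter genes had an unadjusted p under 0.05, against 11.5% of all probe sets. Besides MRP, rdog and Mdr65 were higher by 0.38 ± 0.11 (adjusted p = 0.193) and 0.24 ± 0.11 (adjusted p = 0.413), and CG31792 was lower by −0.20 ± 0.092 (adjusted p = 0.415).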

How the data were processed

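RNA of pooled adult heads was hybridised to 12 arrays, 1 per time point. The authors deposited log2 values made with RMA, per the submitters' processing notes; the RMA version is not given in the sources used here. RMA brings arrays to nearly 1 distribution and compresses changes of dim probe sets. Of 14010 probe sets, 44 controls were left out and 13966 tested. Of all probe sets, 12443 carried 1 gene symbol, 327 carried more and 1196 carried none. The 67 members had 71 probe sets; all 67 matched RefSeq by Entrez number, with the same symbol.

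All arrays were fitted in limma 3.58.1 (R 4.3.3) by lmFit and trended eBayes. A model of 4 group means (8 residual degrees of freedom) gave 6 contrasts, and a mean, cosine and sine per day (6 residual degrees of freedom) gave 2 rhythm tests. Benjamini-Hochberg adjustment ran over the 13966 probe sets with a threshold of 0.05. The steps were tested on simulated data. Figures were drawn with matplotlib 3.10.9.

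Members and lists were chosen with earlier results of these data known. Named were the 5 members with the smallest p per comparison, per family the 6 brightest, the 6 with the widest range and the 3 dimmest, and genes whose probe sets disagree; members outside this rule are named to complete their class or count, after their values were seen. Pathway genes named were those with the smallest unadjusted p of a list and cnc, Keap1, Gclc and sgl. Others of a list, such as Trxr1, are named to complete a count, after their values were seen.

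Alternatives left out each array, or ZT2, ZT18 and CT2 together, added the mean gut and male tract level as a covariate, dropped the trend, kept probe sets with a mean of at least 4, used 1 day alone, averaged a gene's probe sets, or added clock hour as a block. The deviations of same-hour arrays correlated by 0.45, 0.30, 0.27, 0.03, 0.06 and 0.11 from hour 2 to 22, positive at every hour. Even so, the main fits did not treat hours as pairs, and only the block did. The number of arrays limits the precision.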

Additional observations from a re-analysis of the deposited data

Results flagged for a closer look

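GstE8 read 3.34 at CT22, its lowest DD array, while the other 5 DD arrays lay between 3.59 and 3.73. The gap to the nearest array was 0.641 of the range, above Dixon's 95% limit for 6 arrays. Of 74 days of named genes examined in this way 1 stood out, and chance alone flags about 1 in 20. The signal is dim, and the cause was not tested.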

How the results depend on the processing

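Of 148 recomputed counts of called members and family medians, 142 did not change or moved by less than the spread between arrays. The counts were all 0 in the main fits, so they could only stay or rise. Averaging probe sets altered only 3 members, so it could hardly move a count or a median. The count for the light hours against the same DD hours went from 0 to 1 without the CT6 array (Ugt304A1), with the gut and male tract covariate (GstE6) and with clock hour as a replicate block (GstE6). That for LD against DD went from 0 to 1 without the ZT2 array, with the covariate and with the block, each time through GstE6. Leaving out 1 array at a time gave 0 to 1 members in both. The block changed no member count in the dark hours of LD against DD or in the difference of the contrasts, where it was added after seeing the data. For contrasts within a day and the rhythms, no paired analysis was possible because each hour occurs once a day. Over its alternatives, GstE6 ranged from 0.28 to 0.41 in LD against DD (adjusted p 0.024 to 0.388, 3 of 18 past the threshold). In the light hours it ranged from 0.32 to 0.57 (adjusted p 0.033 to 0.572, 2 of 18 past). Ugt304A1 ranged there from −0.43 to −0.29 (adjusted p 0.046 to 0.400). GstD3's amplitude in LD ranged from 0.26 to 0.37 (adjusted p 0.099 to 0.728). Of 100 values of named genes recomputed, 1 changed its sign, that of GstO2 in light against dark. It went from 0.057 to −0.056 as the mean of its probe sets and ranged from −0.0022 to 0.13 without 1 array. The rhythm amplitudes among the 100 cannot be negative, and the other values except that of GstO2 were picked for a small p. The kept signs are therefore no measure of robustness. MRP passed in the light hours also without ZT2, ZT18 and CT2 (0.85), with the covariate (0.67) and with the block (0.65), and se in LD against DD with the block (−0.30, adjusted p = 0.0179). In the light hours MRP ranged from 0.44 to 0.85 (adjusted p 0.006 to 0.395 by limma, 5 of 18 past). In LD against DD it ranged from 0.25 to 0.44 (adjusted p 0.042 to 0.454, 1 of 18 past). There se ranged from −0.37 to −0.26 (adjusted p 0.018 to 0.355, 1 of 18 past). With 3 arrays a group, 1 array can decide a call near the threshold, and values of genes with a mean under 4 rest on dim signals. The counts over all probe sets moved as well. In LD against DD they went from 3 to 118 with the block, 37 with the covariate, 26 without ZT2, ZT18 and CT2, 11 among probe sets with a mean of at least 4, and 0 to 95 without 1 array. In the light hours against DD they went from 26 to 142 with the block, 97 with the covariate, 40 at a mean of at least 4, 15 without the trend, and 1 to 168 without 1 array. For light against dark in LD they went from 18 to 46 with the covariate, 31 without the 3 arrays, 1 from that day alone, and 2 to 54 without 1 array. For day against night in DD they went from 9 to 17 with the covariate, 18 from that day alone, and 0 to 18 without 1 array. For the LD rhythm they went from 15 to 32 with the covariate, 7 without the 3 arrays, 6 from that day alone, and 1 to 22 without 1 array.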
